A study of Mus musculus with 9 samples.

Results

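The 26 genes described here encode GABA receptor subunits, the enzymes and carriers that make, load, take up and break down GABA, 2 proteins of inhibitory synapses, and genes that mark or shape inhibitory interneurons. They were chosen by name, as a list, from the 40213 genes in the count files of 9 mouse ventral hippocampus libraries. All 26 were present and all 26 passed the filter on low counts. The mice were wild-type C57BL/6J males, 8 weeks old when housed. The 3 mice labelled sedentary (SED) had no treatment. The 3 stress-susceptible mice (SUS) had been held in a ventilated tube for 2 hours a day on 14 days. The 3 exercised mice (SUS_LE) were stress-susceptible mice with the same restraint, followed by 2 weeks of low-intensity treadmill running. Each library came from 1 mouse, and the labels give all 9 the same batch number. How susceptibility was scored, and the time from the last session to dissection, are not given in the sources used here. No group of exercised mice without restraint, and none of restrained mice that were not susceptible, was analysed here.

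GABA is the main inhibitory transmitter of the forebrain. Inhibitory interneurons make it from glutamate with the decarboxylases encoded by Gad1 and Gad2, and load it into synaptic vesicles with the carrier encoded by Slc32a1. It opens GABA-A receptors, chloride channels built of subunits drawn from several gene families, and it activates GABA-B receptors, which are G-protein-coupled dimers. In the hippocampus the GABA-A subunit composition decides where a receptor sits: receptors with a gamma subunit and gephyrin gather at synapses, while receptors with the alpha5 or delta subunit mostly lie outside them and carry tonic inhibition. Interneurons that express parvalbumin, somatostatin or reelin target different parts of the pyramidal cell.

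Library totals ran from 14172344 to 15582304 counts, and 16106 genes were tested. Values are counts scaled to library size (CPM), adjusted between libraries by TMM factors, and differences are log2 fold changes with their standard error (SE). Pyramidal cell markers were present in every library, with a summed level of 10 genes from 4284 to 5318 CPM, and the 10 dentate granule cell markers summed to between 297.9 and 416.5 CPM. These levels had no reference from other tissue, so they do not test the label of ventral hippocampus. The libraries differed in choroid plexus RNA: the 10 marker genes summed to 4392 to 6379 CPM in SED, 137.3 to 8560 CPM in SUS and 213.3 to 2277 CPM in SUS_LE. SUS 1, SUS_LE 1 and SUS_LE 3 were the lowest in Ttr, the main choroid plexus transcript, at 27.4, 83.2 and 59.6 CPM. The 12 markers of striatum, a neighbouring region rich in GABA neurons, summed to 166.3 to 178.5 CPM in SED, 146.2 to 189.2 CPM in SUS and 158.8 to 172.4 CPM in SUS_LE. Of these, 11 were tested, and the other, Ido1, was at 0 in 5 libraries. Of the 11, 8 had higher values in SUS than in SED, 4 in SUS_LE than in SUS and 10 in SUS_LE than in SED. The striatum score is the mean log2 CPM of the 11, each centred on its mean over the 9 libraries. It ran from −0.286 to 0.0725 in SED, 0.102 to 0.211 in SUS and −0.176 to 0.196 in SUS_LE. Every SUS mouse was above every SED mouse in this score, though not in the sum. The gap was narrow, with SUS 1 at 0.102 and SED 2 at 0.0725. Each gene weighs the same in the score, among them Gpr6, near the floor at 1.31 CPM in SUS 1 and 0.701 CPM in SED 2. Ppp1r1b went the other way, at 24.6 CPM in SUS 1 and 46 CPM in SED 2. The oligodendrocyte markers, 10 genes, summed to 3076 to 3283 CPM in SED, 2590 to 2960 CPM in SUS and 2659 to 3281 CPM in SUS_LE, with 0, 9 and 2 of the 10 higher in the comparisons of SUS with SED, SUS_LE with SUS and SUS_LE with SED. The endothelial markers, 7 genes, summed to 243.2 to 263.2, 221 to 245.8 and 261.5 to 283.8 CPM in the 3 groups, with 1, 6 and 7 of the 7 higher. None of these 17 was at 0 in a library. The part of these tissues and cell types in the results below was not tested. SUS 1 stood apart from the other libraries, being the lowest of the 9 for 19.1% and the highest for 19.3% of all tested genes.

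No GABA gene passed the adjusted threshold for a group difference in edgeR, and no other tested gene did. This does not show that the GABA genes were unchanged. In edgeR's quasi-likelihood test, adjusted over all tested genes by the Benjamini-Hochberg method, 0 of the 26 passed 0.05 in any of the 3 comparisons, where 0% of all tested genes passed in each. The smallest adjusted p among them was 0.235 for SUS against SED, 0.126 for SUS_LE against SUS and 0.63 for SUS_LE against SED. The genes with the smallest p in any comparison were Gabra5, Gphn and Gad2, which all had higher values in exercised mice than in unexercised susceptible mice. Next were Gad1 for SUS_LE against SED, Gabra4 for SUS_LE against SUS and Erbb4 for SUS against SED. The fold changes of the 26 genes ran from −0.29 to 0.28 for SUS against SED, from −0.19 to 0.27 for SUS_LE against SUS, and from −0.14 to 0.16 for SUS_LE against SED.

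At an unadjusted p under 0.05 in edgeR, 7 of the 26 differed between SUS and SED, 2 higher and 5 lower in SUS, against 13.1% of all tested genes (6.83% higher and 6.26% lower). For SUS_LE against SUS, 6 of the 26 did, all 6 with higher values in SUS_LE, against 13.7% of all genes (7.20% higher and 6.49% lower). For SUS_LE against SED, 3 of the 26 did, all 3 higher, against 6.64% of all genes (2.79% higher and 3.86% lower). Groups without overlap were found for 5 of the 26 in SUS against SED (2 higher, 3 lower), beside 18.3% of all tested genes (9.72% higher, 8.56% lower). They were found for 5 in SUS_LE against SUS (4 higher, 1 lower), beside 17.0% (8.61% higher, 8.38% lower), and for 6 in SUS_LE against SED (5 higher, 1 lower), beside 16.2% (7.54% higher, 8.64% lower). DESeq2 called 1 of the 16 members to which it gave an adjusted p in each of the first 2 comparisons, Erbb4 and Gabra5, against 4.51% and 3.57% of all genes with an adjusted p. It called 0 of 26 for SUS_LE against SED, against 0.0994% of all genes. limma voom called 0 members and 0% of genes in each. In the test for any difference among the 3 groups, edgeR called 0 of the 26 (smallest adjusted p = 0.193) and 0% of all genes, with 7 of the 26 and 13.5% of all genes at an unadjusted p under 0.05, and DESeq2 called 0 of the 26, where it called 4.65% of the genes with an adjusted p. The median fold change of the 26 was 0.0395, 0.0334 and 0.0352 on the log2 scale in the 3 comparisons, beside −0.0004, 0.0011 and 0.0085 for all tested genes, and the first of these stood at −0.0022 without SUS 1.

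A single library, SUS 2, decided whether some of these genes passed. Without it, edgeR called 1 member for SUS against SED, Erbb4 (fold change −0.42, adjusted p = 0.0488). It also called 4 for SUS_LE against SUS: Gphn (0.33, adjusted p = 0.0313), Erbb4 (0.36, adjusted p = 0.0371), Gabra5 (0.28, adjusted p = 0.0444) and Gad2 (0.24, adjusted p = 0.0494). SUS 2 was the highest of the 3 SUS mice in all 4 genes. In the same fit, 27 and 184 of all tested genes passed. The first and second comparisons both use the 3 SUS mice, so their values are set side by side below and not correlated. In tissue RNA, fewer cells of a type and less RNA per cell cannot be told apart.

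**Figure D1:**
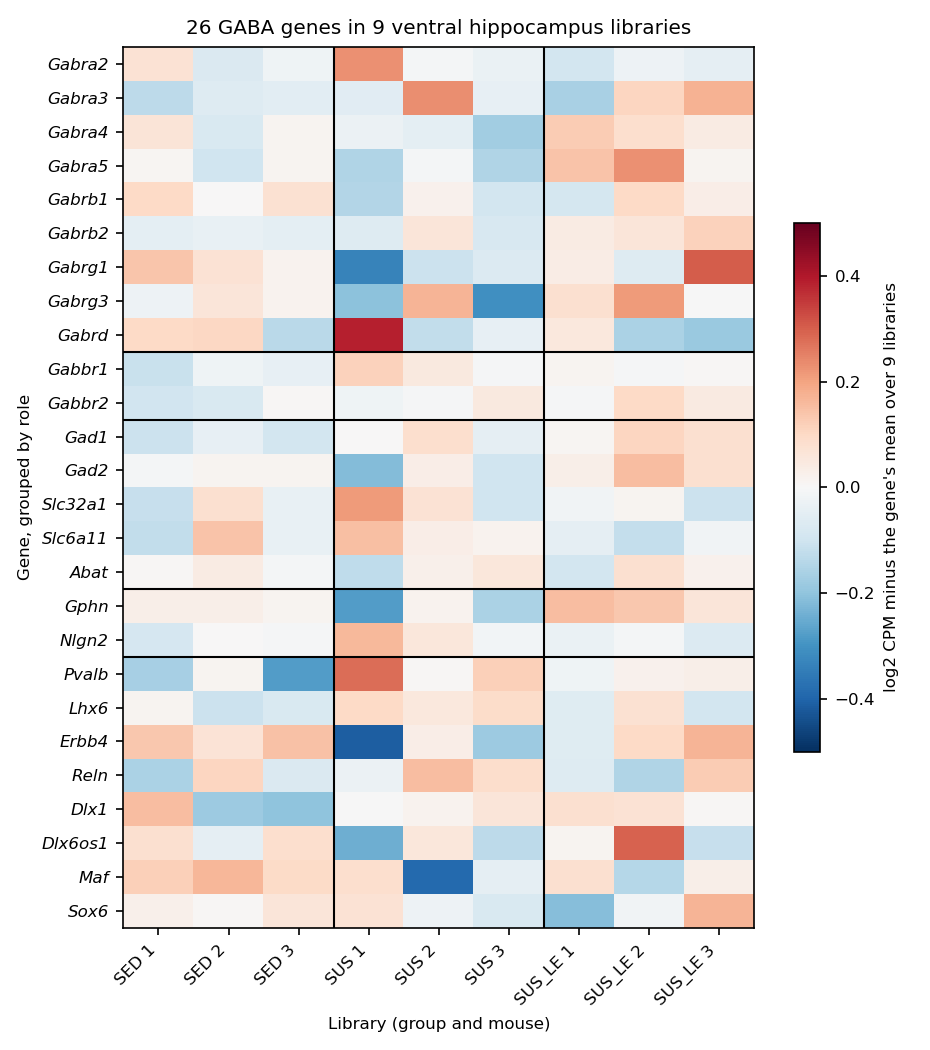
Each cell shows a gene's log2 CPM in a library minus that gene's mean over the 9 libraries, with genes grouped by role and libraries by group. SUS 1 was the lowest library for 7 of the 26 genes and the highest for 8, and SUS_LE 2 was the highest for 8.

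**Figure D2:**
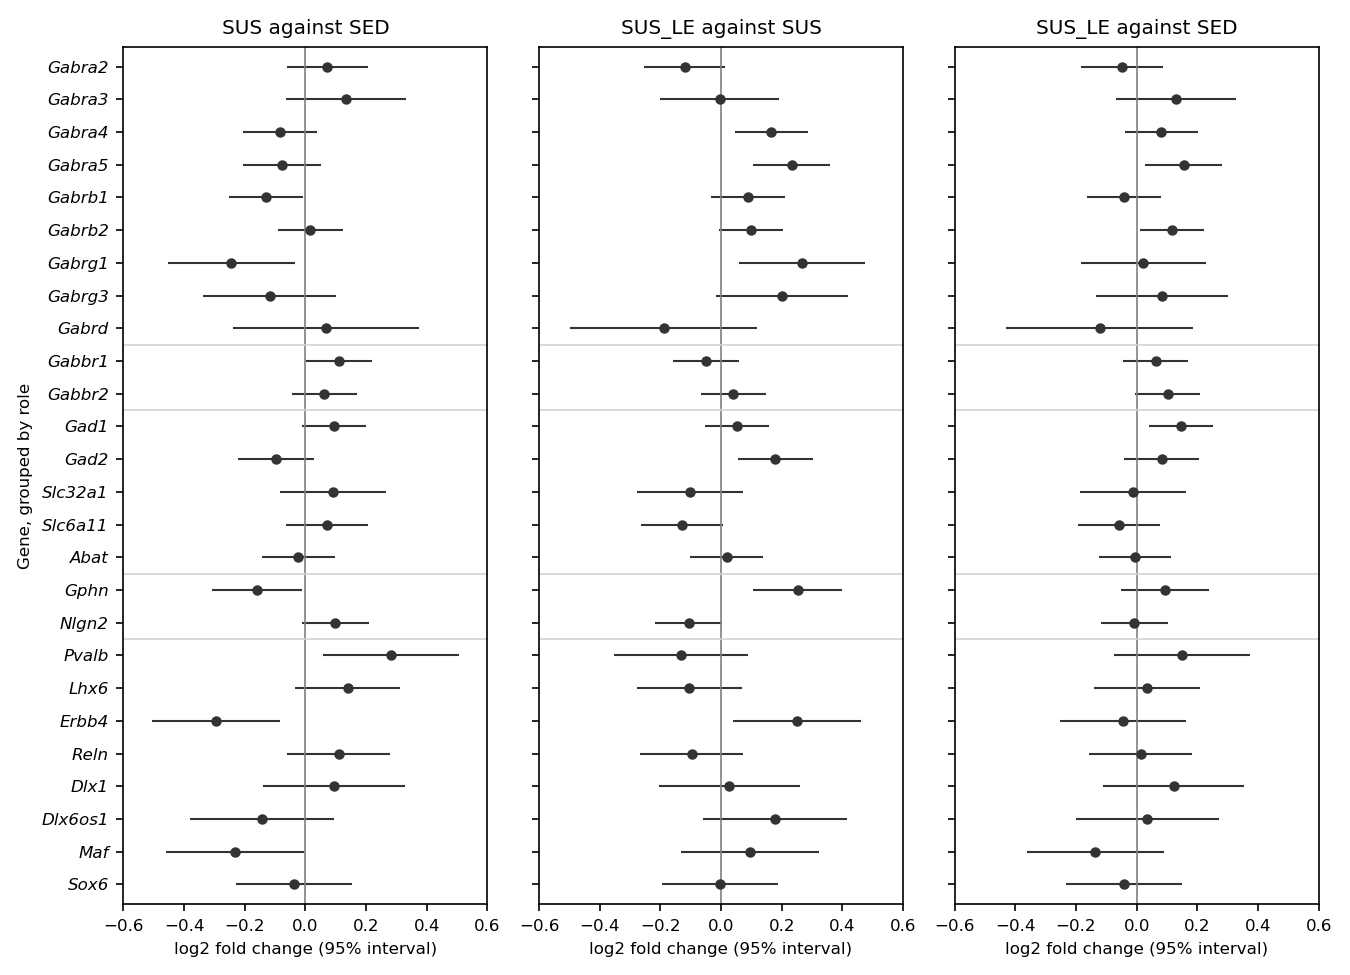
Points are edgeR log2 fold changes of the 26 genes in each comparison and lines their 95% intervals. The interval lay apart from 0 for 7 genes in SUS against SED, 6 in SUS_LE against SUS and 3 in SUS_LE against SED, before adjustment for the number of genes tested.

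The fold changes followed the base composition of the transcripts, for the GABA genes as for all genes. Transcript sequences, taken as the longest per gene in GENCODE M21, show the range. The first 2 windows below are from the coding sequences of 2 GABA-A subunits whose transcripts are low in G and C, Gabrg1 (35.3%) and Gabra2 (38.4%), and the other 2 are from Nlgn2 (60.7%) and Slc32a1 (61.9%), the highest of the 26. Each is 90 coding bases, 5′ to 3′, with G and C in capitals, chosen as the window nearest in GC content to its whole transcript. The whole coding sequences had a GC content of 41.3% in Gabrg1, 43% in Gabra2, 62.7% in Nlgn2 and 61.5% in Slc32a1.
Gabrg1: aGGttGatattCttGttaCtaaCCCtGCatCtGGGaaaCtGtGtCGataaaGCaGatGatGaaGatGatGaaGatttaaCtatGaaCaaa
Gabra2: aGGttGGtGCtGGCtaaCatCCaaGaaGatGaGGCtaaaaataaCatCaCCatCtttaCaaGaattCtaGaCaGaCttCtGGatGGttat
Nlgn2: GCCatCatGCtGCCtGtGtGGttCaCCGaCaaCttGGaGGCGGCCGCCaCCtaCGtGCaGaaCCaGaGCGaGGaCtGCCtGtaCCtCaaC
Slc32a1: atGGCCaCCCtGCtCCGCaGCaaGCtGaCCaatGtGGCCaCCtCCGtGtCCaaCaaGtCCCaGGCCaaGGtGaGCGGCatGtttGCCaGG
Over the 26 genes the Spearman correlation of fold change with GC content was 0.601 for SUS against SED and −0.604 for SUS_LE against SUS. Over all tested genes with a matched transcript (91.3%) it was 0.353 and −0.382. For SUS_LE against SED it was −0.0366 for the 26 and −0.035 for all genes. These are descriptions across genes, which share the same libraries. Gabrg1 and Erbb4 followed the trend, with lower values in SUS and higher ones in SUS_LE, and Slc32a1 and Nlgn2 went the other way in both, whereas Gabra2 did not follow it: its fold change was 0.07 and then −0.12.

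With the trends of GC content and length removed in each library, 6, 6 and 4 of the 26 were at an unadjusted p under 0.05 in edgeR in the 3 comparisons, beside 9.2%, 9.02% and 7.44% of all tested genes. For SUS against SED 2 of the 7 genes remained, Pvalb and Erbb4, and Gabra2, Gabra3, Gad1 and Reln came in. For SUS_LE against SUS 4 of the 6 remained, Gabra5, Gad2, Gphn and Erbb4, and Gabra2 and Gabbr2 came in. For SUS_LE against SED all 3 remained, Gabra5, Gabrb2 and Gad1, and Gabbr2 came in. The correlation with GC content over the 26 was then 0.241, −0.296 and 0.0756. Erbb4 stood at −0.14 for SUS against SED in place of −0.29, and Gabrg1 at −0.11 in place of −0.24, while Gabra5 stood at 0.21 for SUS_LE against SUS in place of 0.23 and Gphn at 0.23 in place of 0.25. The part of base composition in the group differences was not tested beyond these values.

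**Figure D3:**
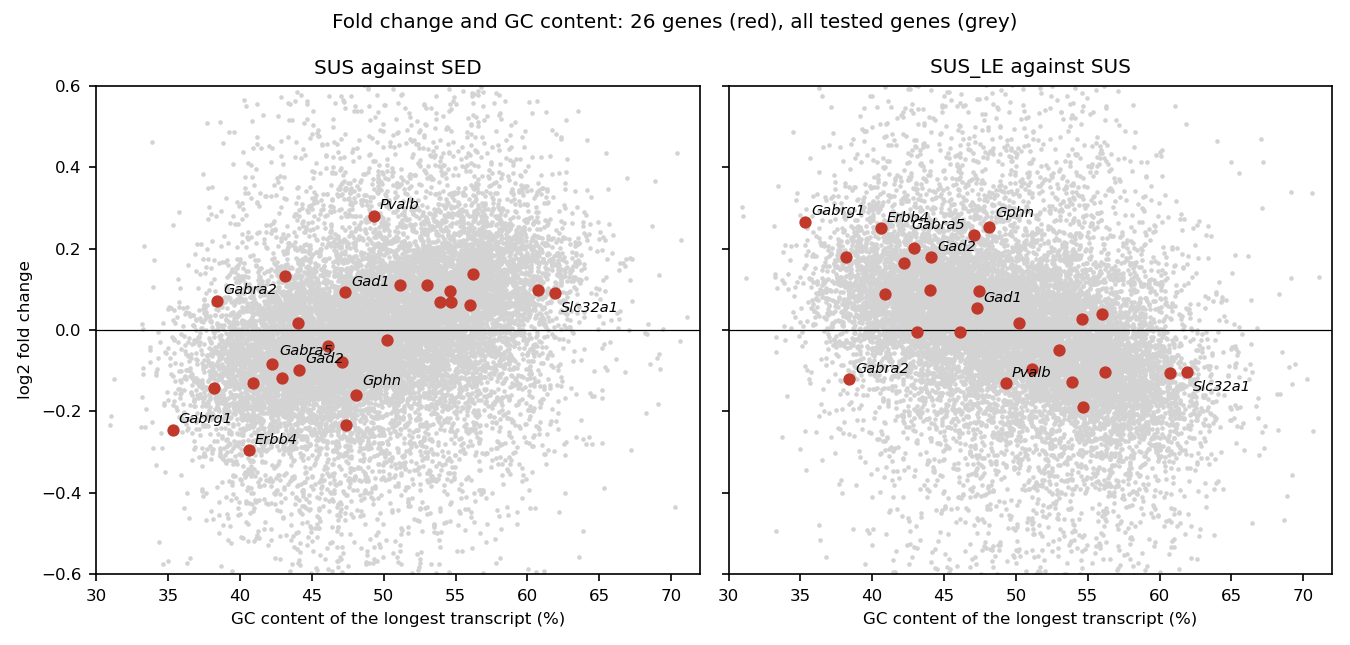
Each point is a gene, placed by the GC content of its longest transcript (%) and its log2 fold change, with the 26 GABA genes in red over all tested genes in grey; genes beyond 0.6 in either direction are not drawn. Gabrg1 and Erbb4, low in GC content, sit below 0 on the left and above 0 on the right, and Slc32a1, the highest in GC content of the 26, sits on the opposite side in each panel.

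Among the 9 GABA-A subunit genes, levels per kilobase of the longest transcript formed 3 tiers. Gabrb2 (73.1 CPM per kb), Gabra5 (62.0) and Gabra2 (60.1) formed the upper tier. Gabra4 (23.7), Gabra3 (22.2) and Gabrb1 (21.6) stood below them, and Gabrg1 (4.99), Gabrd (3.49) and Gabrg3 (3.3) lowest. Neighbours within a tier overlapped across the 9 libraries, for example Gabrb2 at 69.1 to 79 and Gabra2 at 56.3 to 70.3 CPM per kb, while the tiers did not. Of the 9 genes, 4 had higher and 5 lower values in SUS than in SED, 6 higher and 3 lower in SUS_LE than in SUS, and 6 higher and 3 lower in SUS_LE than in SED. None passed the adjusted threshold in edgeR in any comparison, and at an unadjusted p under 0.05 there were 2, 3 and 2 of the 9, beside 13.1%, 13.7% and 6.64% of all tested genes. DESeq2 called 0, 1 and 0, beside 4.51%, 3.57% and 0.0994% of the genes with an adjusted p.

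Gabra5 encodes the alpha5 subunit of hippocampal extrasynaptic receptors. Its level was 166, 154 and 167 CPM in the 3 SED mice, 149, 164 and 149 CPM in the 3 SUS mice, and 182, 194 and 167 CPM in the 3 SUS_LE mice. Every exercised mouse stood above every SUS mouse, and SUS overlapped SED. The fold change of SUS_LE against SUS was 0.23 (SE 0.0606, edgeR adjusted p = 0.126), with a 95% interval of 0.11 to 0.36. DESeq2 called it (adjusted p = 0.0302), and did not without its independent filtering (adjusted p = 0.0802) or without SUS 1 (0.182), SUS 3 (0.0942), SUS_LE 1 (0.0751) or SUS_LE 2 (0.233). Against SED the exercised mice were 0.16 higher (SE 0.0605, edgeR adjusted p = 0.658). Gabra5 lies next to Gabrg3 in the RefSeq annotation of GRCm38.p6. As no strand setting is given in the sources used here, reads from places where genes overlap cannot be assigned with certainty.

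Gabra4, the alpha4 subunit, pairs with delta in tonic receptors of granule cells. It stood at 102, 92.3 and 98.1 CPM in SED, 95.3, 94 and 86.3 CPM in SUS and 106, 103 and 100 CPM in SUS_LE. The SUS_LE mice were all above the SUS mice, with a fold change of 0.17 (SE 0.0576, edgeR adjusted p = 0.209). Its partner Gabrd, the delta subunit, was a low transcript, with 121 to 179 counts a library. Gabrd stood at 10, 10.1 and 8.52 CPM in SED, 12.3, 8.61 and 9.12 CPM in SUS, and 9.72, 8.38 and 8.24 CPM in SUS_LE, so SUS 1 was alone above the rest. Its fold change was 0.07 for SUS against SED (95% interval −0.24 to 0.37) and −0.19 for SUS_LE against SUS (−0.50 to 0.12), intervals too wide at this depth to separate the groups. Gabra4 overlaps Gabrb1, and Gabrd overlaps Cfap74, in the same annotation.

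Gabrg1, a gamma subunit that neurons and glia both express, had its lowest values in SUS. It stood at 26, 24.9 and 23.9 CPM in SED, 18.7, 21.9 and 22.5 CPM in SUS, and 24.2, 22.6 and 29.2 CPM in SUS_LE. The SUS mice were below all 3 of the SED mice and all 3 of the SUS_LE mice. The fold change was −0.24 for SUS against SED (SE 0.1, edgeR adjusted p = 0.299) and 0.27 for SUS_LE against SUS (SE 0.0997, edgeR adjusted p = 0.245). Without SUS_LE 3 the second stood at 0.15. Without the 3 libraries lowest in Ttr it stood at 0.03, with 1 exercised mouse left.

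The other 5 subunits differed less or varied more within groups. Gabrb1, a beta subunit, had a fold change of −0.13 for SUS against SED (SE 0.0582, edgeR adjusted p = 0.349), its levels being 297 to 317 CPM in SED and 268 to 301 CPM in SUS. Gabrb2, the most abundant subunit per kilobase, stood above every SED mouse in every SUS_LE mouse, at 300, 303 and 315 CPM against 282, 284 and 282 CPM, a fold change of 0.12 (SE 0.0506, edgeR adjusted p = 0.713). Gabra2, the alpha2 subunit found at the axon initial segment of pyramidal cells, was highest in SUS 1, at 411 CPM, and lay between 329 and 369 CPM in the other 8 libraries. Gabra3 ran from 72.3 to 95 CPM and Gabrg3, a neighbour of Gabra5, from 25.8 to 37.2 CPM, with groups that overlapped in every comparison.

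**Figure D4:**
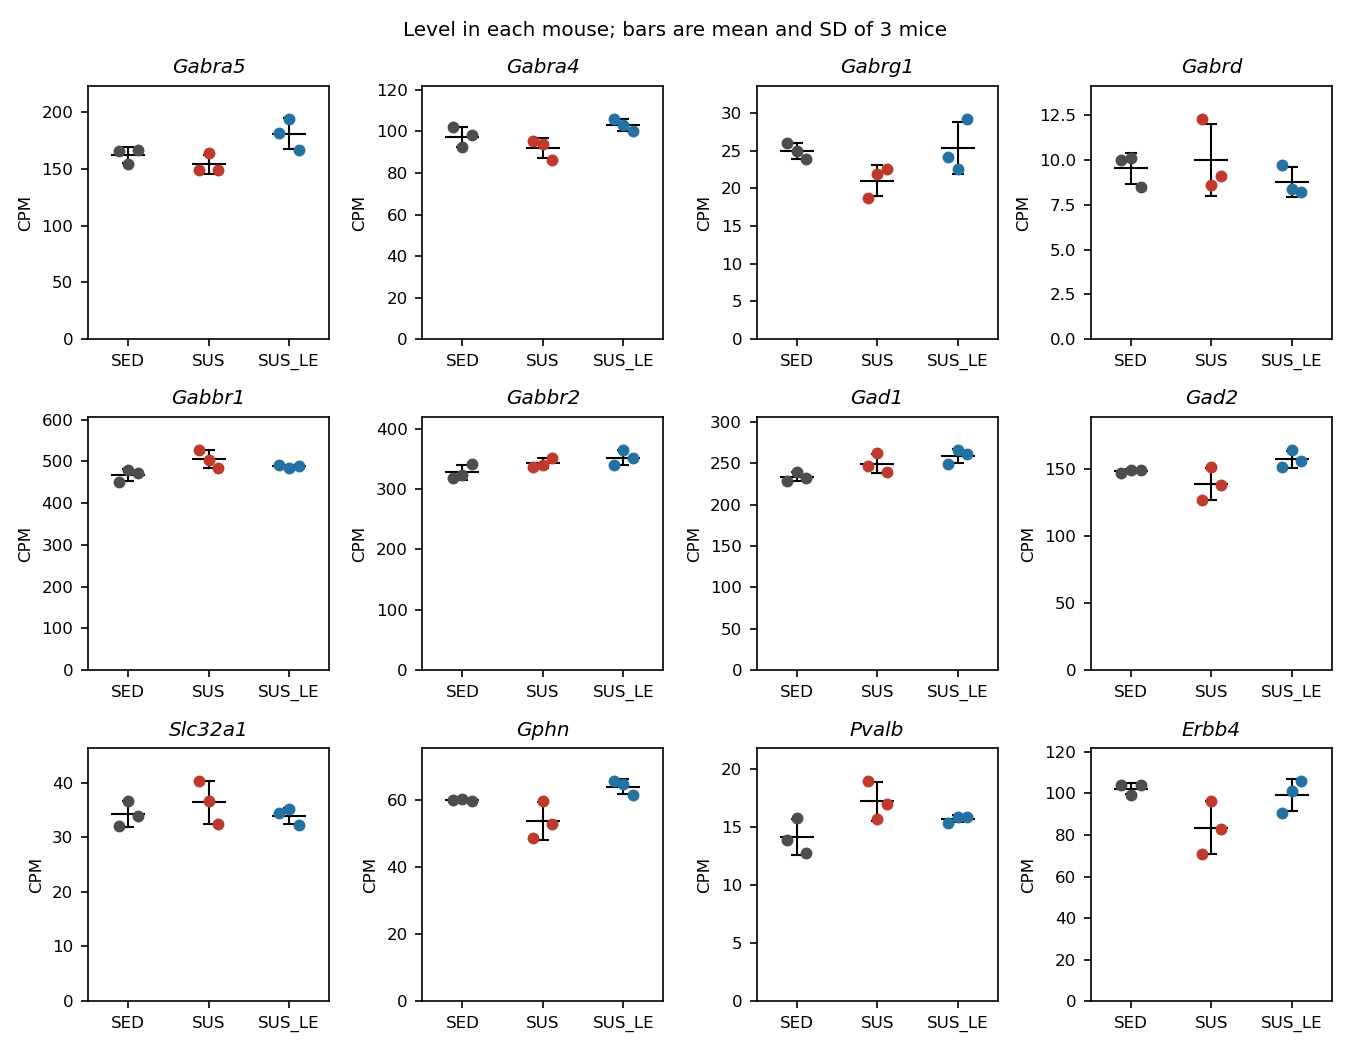
Points are the CPM of 12 of the genes in each mouse, with horizontal bars at the mean and error bars of 1 SD (3 mice a group); every axis starts at 0. In Gabra5, Gabra4 and Gphn every SUS_LE mouse lies above every SUS mouse, and in Erbb4 and Gabrg1 every SUS mouse lies below every SED mouse.

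The GABA-B receptor needs both of its subunits, Gabbr1, which binds GABA, and Gabbr2, which couples to the G protein. Gabbr1 had the highest level per kilobase of the 26 genes, at 92.8 CPM per kb, and Gabbr2 stood at 59.3. Gabbr1 was at 451, 479 and 473 CPM in SED, 527, 503 and 485 CPM in SUS and 491, 485 and 489 CPM in SUS_LE. The SED mice were the lowest 3 of the 9. The fold change of SUS against SED was 0.11 (SE 0.0519, edgeR adjusted p = 0.37), and that of SUS_LE against SED 0.06 (95% interval −0.05 to 0.17). Gabbr2 stood at 319, 323 and 342 CPM in SED, 336, 340 and 352 CPM in SUS and 340, 365 and 351 CPM in SUS_LE. Its groups overlapped, and the largest of its fold changes was 0.10 for SUS_LE against SED (SE 0.0511, edgeR adjusted p = 0.766).

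The synthesis enzymes Gad1 and Gad2 differed from each other in their pattern. Gad1 makes the enzyme that supplies GABA throughout the cell, and Gad2 the one attached to synaptic vesicles. Gad1 was at 229, 240 and 232 CPM in SED, 247, 262 and 239 CPM in SUS and 249, 266 and 261 CPM in SUS_LE. All 3 exercised mice were above all 3 sedentary mice, with a fold change of 0.15 (SE 0.0502, edgeR adjusted p = 0.63), and the SUS mice overlapped both. Gad2 was at 147, 149 and 149 CPM in SED, 127, 151 and 138 CPM in SUS and 151, 164 and 156 CPM in SUS_LE. The SUS mice spread over a wider range than either other group, and SUS 2 lay level with the lowest exercised mouse. For SUS_LE against SUS the fold change of Gad2 was 0.18 (SE 0.0592, edgeR adjusted p = 0.188), and for SUS against SED −0.10 (SE 0.0594, edgeR adjusted p = 0.503). Without SUS 1 these stood at 0.12 and −0.04, and without SUS 2 the second stood at −0.17. Gad1 overlaps its antisense gene Gad1os in the annotation.

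The ratio of Gad2 to Gad1 counts within a library does not depend on scaling between libraries. This ratio was chosen after the values were seen, and it is given as a description. An exact permutation test of its log2 values gave p = 0.1 in each comparison. That is the smallest p possible with 3 mice a group, so the test cannot decide. The ratio was 0.639, 0.62 and 0.642 in SED, 0.513, 0.577 and 0.576 in SUS and 0.606, 0.616 and 0.597 in SUS_LE. The 3 groups did not overlap: SED was highest, SUS_LE in between and SUS lowest. On the log2 scale SUS was below SED by a difference of −0.19, SUS_LE above SUS by 0.13, and SUS_LE below SED by a difference of −0.06. With GC and length trends removed the differences were −0.15, 0.10 and −0.05, and leaving out each library in turn they ran from −0.22 to −0.14, from 0.07 to 0.16 and from −0.08 to −0.05. Of the 325 ratios between 2 of the 26 genes, 27.4%, 23.4% and 15.1% did not overlap in the 3 comparisons, and 6 (1.85%) in all 3. The other 5 were Gabra2 with Gabra4, Gabra3 with Erbb4, Gabra5 with Lhx6, Gphn with Nlgn2 and Pvalb with Maf. A ratio within a library does not tell which of its genes differed, and a ratio picked after seeing the values may separate the groups by chance.

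**Figure D5:**
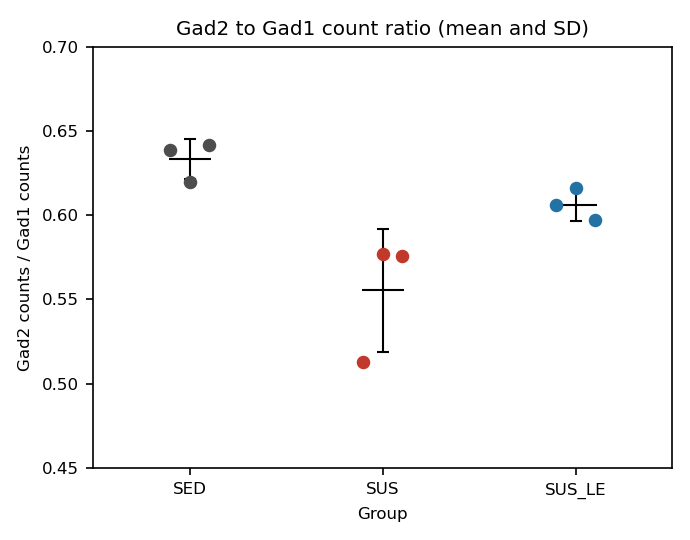
Points are the ratio of Gad2 to Gad1 counts in each mouse, with the mean and 1 SD of 3 mice; the axis does not start at 0. SED lies at 0.62 to 0.642, SUS_LE at 0.597 to 0.616 and SUS at 0.513 to 0.577.

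The start regions of Gad1 and Gad2, whose levels the ratio compares, are printed below from the RefSeq promoter table of GRCm38.p6, which held 23 of the 26 genes. Each runs from 250 bases before the start to 50 after it, on the plus strand and 5′ to 3′. Capitals mark matches on either strand to a GC box (GGGCGG), a CRE half-site (TGACG) or a TATA box (TATAAA).
Gad1, chr2:70561879-70562178: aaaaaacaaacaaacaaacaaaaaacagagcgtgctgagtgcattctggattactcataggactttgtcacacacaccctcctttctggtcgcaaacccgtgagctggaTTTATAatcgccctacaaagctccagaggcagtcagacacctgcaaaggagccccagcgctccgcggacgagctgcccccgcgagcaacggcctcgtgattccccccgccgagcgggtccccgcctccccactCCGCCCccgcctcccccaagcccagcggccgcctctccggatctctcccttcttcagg
Gad2, chr2:22622077-22622376: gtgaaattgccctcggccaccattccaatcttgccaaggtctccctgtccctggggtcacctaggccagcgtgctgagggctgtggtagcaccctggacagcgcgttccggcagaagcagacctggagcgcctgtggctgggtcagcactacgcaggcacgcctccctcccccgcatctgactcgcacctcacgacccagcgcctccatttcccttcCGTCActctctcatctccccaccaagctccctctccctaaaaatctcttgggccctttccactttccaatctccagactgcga
The Gad1 window had 60% GC, 21 CpG dinucleotides, 1 GC box, 1 TATA box and 0 CRE half-sites. The Gad2 window had 61.3% GC, 14 CpG dinucleotides and 1 CRE half-site, with 0 of the other 2 motifs. Over 32851 promoters the median GC was 52.7% and the median CpG count 7, and 35.7% held the GC box, 20.8% the CRE half-site and 13.6% the TATA box. The matches describe the letters of these windows alone.

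The vesicle carrier, the uptake carrier and the breakdown enzyme had no fold change at an unadjusted p under 0.05 in edgeR. Slc32a1 was at 32.1, 36.7 and 33.9 CPM in SED, 40.3, 36.6 and 32.4 CPM in SUS and 34.4, 35.1 and 32.3 CPM in SUS_LE. The 3 groups overlapped, with the highest and a near-lowest value both in SUS. Its fold change was 0.09 for SUS against SED (95% interval −0.08 to 0.27) and −0.10 for SUS_LE against SUS (−0.28 to 0.07). Slc6a11, a GABA transporter of astrocytes, stood at 101 to 121 CPM in SED, 111 to 122 CPM in SUS and 101 to 109 CPM in SUS_LE, so that SUS_LE lay below SUS (fold change −0.13, SE 0.0646, edgeR adjusted p = 0.395, and −0.09 without SUS 1). Abat, the transaminase that breaks GABA down, ran from 179 to 206 CPM, and its fold changes were −0.02, 0.02 and −0.01, with 95% intervals that went no lower than −0.14 and no higher than 0.14.

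Gephyrin, encoded by Gphn, is the scaffold that holds GABA-A and glycine receptors at inhibitory synapses. Gphn was at 60, 60.1 and 59.5 CPM in SED, 48.5, 59.7 and 52.7 CPM in SUS and 65.6, 64.6 and 61.3 CPM in SUS_LE. The exercised mice were the highest 3 of the 9, the sedentary mice lay within 1 CPM of each other, and SUS 1 and SUS 3 were the lowest, while SUS 2 reached the sedentary level. The fold change of SUS_LE against SUS was 0.25 (SE 0.0699, edgeR adjusted p = 0.141, DESeq2 adjusted p = 0.0592), and that of SUS against SED −0.16 (SE 0.0702, edgeR adjusted p = 0.337). The second stood at −0.09 without SUS 1 and at −0.25 without SUS 2. Nlgn2, the neuroligin of inhibitory synapses, which binds gephyrin, had the opposite signs. It stood at 186 to 197 CPM in SED, 195 to 220 CPM in SUS and 188 to 195 CPM in SUS_LE, with fold changes of 0.10 (SE 0.0525, edgeR adjusted p = 0.435) and −0.11 (SE 0.0525, edgeR adjusted p = 0.382), which stood at 0.05 and −0.06 without SUS 1.

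Of the 8 interneuron genes, 4 had higher and 4 lower values in SUS than in SED, again 4 and 4 in SUS_LE than in SUS, and 5 and 3 in SUS_LE than in SED. Erbb4 encodes the neuregulin receptor, which is found mainly in interneurons in the hippocampus. It was at 104, 99.1 and 104 CPM in SED, 70.9, 96.5 and 83.1 CPM in SUS and 90.6, 101 and 106 CPM in SUS_LE. Every SUS mouse was below every SED mouse, with SUS 1 lowest, and the exercised mice overlapped both groups. The fold change of SUS against SED was −0.29 (SE 0.0961, edgeR adjusted p = 0.235), the most negative of the 26. DESeq2 called it (adjusted p = 0.0399), and did not without its independent filtering (adjusted p = 0.13) or without SED 1 (0.258), SED 2 (0.0856), SUS 1 (0.276), SUS 3 (0.0691) or SUS_LE 2 (0.0527), and without SED 3 it gave no adjusted p. Without SUS 1 the edgeR fold change was −0.19. For SUS_LE against SUS it was 0.25 (SE 0.0961, edgeR adjusted p = 0.289), and 0.15 without SUS 1.

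Pvalb encodes parvalbumin, the calcium buffer of fast-spiking basket cells. Its level was 13.9, 15.8 and 12.8 CPM in SED, 19, 15.7 and 17 CPM in SUS and 15.4, 15.9 and 15.9 CPM in SUS_LE. SUS 2 lay inside the sedentary range and the other SUS mice above it, and the exercised mice lay close together. The fold change of SUS against SED was 0.28 (SE 0.1065, edgeR adjusted p = 0.267), the highest of the 26. Lhx6, a transcription factor of interneurons from the medial ganglionic eminence, stood at 19.9 to 21.7 CPM in SED and 22.3 to 23 CPM in SUS, with no overlap and a fold change of 0.14 (SE 0.0832, edgeR adjusted p = 0.494).

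Maf, a transcription factor of the same lineage, ran from 21 to 22 CPM in SED and from 14.9 to 20.8 CPM in SUS, a fold change of −0.23 (SE 0.108, edgeR adjusted p = 0.367), with SUS 2 the lowest of the 9 and a fold change of −0.11 without it. Sox6, which acts after Lhx6 in that lineage, had fold changes of −0.04, 0.00 and −0.04. Reln, secreted by a class of interneurons and by Cajal-Retzius cells, ran from 68.3 to 84.7 CPM with overlap in every comparison. Dlx1, a homeobox factor of all forebrain interneurons, and Dlx6os1, a long RNA of the neighbouring Dlx locus, ran from 12.4 to 15.9 and from 14.6 to 21.2 CPM, also with overlap. Dlx6os1 overlaps Dlx6, Dlx1 overlaps Dlx1as and Sox6 overlaps Sox6os, so their counts are uncertain without a known strand setting.

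Of 10 genes of GABA metabolism and chloride or glutamine transport, 3 had higher and 7 lower values in SUS than in SED, and 8 higher and 2 lower in SUS_LE than in SUS; 0 passed in edgeR, and 1 in each, Slc38a2, was at an unadjusted p under 0.05 and was called by DESeq2. For SUS_LE against SED, 7 were higher and 3 lower, with 0 at an unadjusted p under 0.05 and 0 called by DESeq2. Of all tested genes 13.1%, 13.7% and 6.64% were at an unadjusted p under 0.05, and DESeq2 called 4.51%, 3.57% and 0.0994% of the genes with an adjusted p. Slc38a2, a glutamine carrier, stood at 88.3 ± 1.41 CPM in SED, 72.2 ± 6.94 CPM in SUS and 86.4 ± 7.53 CPM in SUS_LE (mean and SD, n = 3 mice each). Its fold changes were −0.29 (edgeR adjusted p = 0.134, DESeq2 adjusted p = 0.0226) and 0.26 (edgeR adjusted p = 0.145, DESeq2 adjusted p = 0.0498). Slc12a5, the neuronal chloride exporter, had fold changes of 0.11 and −0.04, neither past the threshold.

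Of 23 genes of inhibitory synapse scaffolds and receptor trafficking, 12 had higher and 11 lower values in SUS than in SED, 13 and 10 in SUS_LE than in SUS, and 15 and 8 in SUS_LE than in SED. In edgeR 0 passed, with 6, 5 and 1 of the 23 at an unadjusted p under 0.05, beside 13.1%, 13.7% and 6.64% of all tested genes, and DESeq2 called 2, 0 and 0, beside 4.51%, 3.57% and 0.0994% of the genes with an adjusted p. Kctd16, an auxiliary subunit of GABA-B receptors, was at 164 ± 9.19 CPM in SED, 143 ± 4.74 CPM in SUS and 162 ± 8.32 CPM in SUS_LE (mean and SD, n = 3 mice each). Its fold change was −0.20 for SUS against SED (edgeR adjusted p = 0.165, DESeq2 adjusted p = 0.0403). Gabarapl1, a member of the family that carries receptors to the membrane and takes part in autophagy, was 0.21 higher in SUS (edgeR adjusted p = 0.165, DESeq2 adjusted p = 0.0347).

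Of 49 other interneuron genes 46 were tested, 28 with higher and 18 with lower values in SUS than in SED, 19 and 27 in SUS_LE than in SUS, and 31 and 15 in SUS_LE than in SED. In edgeR 0 passed, with 9, 8 and 1 of the 46 at an unadjusted p under 0.05, beside 13.1%, 13.7% and 6.64% of all tested genes, and DESeq2 called 1, 1 and 0, beside 4.51%, 3.57% and 0.0994% of the genes with an adjusted p. Prox1, a factor of interneurons from the caudal ganglionic eminence that also marks dentate granule cells, had fold changes of −0.41 (edgeR adjusted p = 0.178, DESeq2 adjusted p = 0.00479) and 0.34 (edgeR adjusted p = 0.211, DESeq2 adjusted p = 0.0281). Over the 10 dentate granule cell markers, Prox1 among them, 1 had a higher value in SUS than in SED and 10 had a higher value in SUS_LE than in SUS. Pnoc, the precursor of nociceptin, was 0.52 higher in SUS than in SED (edgeR adjusted p = 0.197), and Sst, encoding somatostatin, had a fold change of −0.13 for SUS_LE against SUS (edgeR adjusted p = 0.328). Dlx2, the partner of Dlx1, stood at 5.02 ± 0.634 CPM in SUS_LE and 3.12 ± 0.199 CPM in SED (mean and SD, n = 3 mice each), a fold change of 0.69 (edgeR adjusted p = 0.456).

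Relations between genes across the 9 libraries were examined for 19 pairs, with exact permutation tests, two-sided and adjusted over the 19. None passed the threshold. Pairings were permuted over all 9 libraries without regard to group, so each r mixes differences between groups with variation within them. The largest by Pearson's r was between the neighbours Gabra5 and Gabrg3 (Pearson r = 0.769, exact p = 0.0164, adjusted p = 0.312; Spearman rho = 0.683, exact p = 0.0503, adjusted p = 0.46), and r was 0.546 without the 2 libraries farthest from the Gabra5 median. Gphn and Nlgn2 had r = −0.687 (exact p = 0.0528, adjusted p = 0.502; rho = −0.5, exact p = 0.178, adjusted p = 0.46), and r = −0.163 without SUS 1 and SUS 3, the 2 farthest from the Gphn median. Leaving out such libraries narrows the range of values, which by itself can weaken r. Gad1 and Gad2, the pair with the largest Spearman's rho, had r = 0.445 (exact p = 0.236, adjusted p = 0.539; rho = 0.733, exact p = 0.0311, adjusted p = 0.46), and r = 0.292 without SED 1 and SUS_LE 2. Gad1, Gad2, Slc32a1 and Dlx6os1 had r of 0.416, −0.273, 0.261 and −0.6 with the striatum marker score, with exact p of 0.255, 0.49, 0.505 and 0.0852.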

How the data were processed

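RNA of ventral hippocampus from 9 mice, 3 a group, was sequenced with the CORALL RNA-seq V2 kit after RNAiso Plus extraction, per the labels' protocols. The deposited files hold whole-number counts per gene symbol, not normalized, made by the authors with fastp, STAR and Salmon on GRCm39, per the submitters' processing notes. Tool versions, the annotation, the strand setting, any handling of molecular identifiers, and any rounding of estimated values are not given in the sources used here. If molecular identifiers were not used, counting error is understated.

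Genes were kept by edgeR's expression filter with group sizes, which left 16106 genes. The edgeR 4.0.16 quasi-likelihood test with TMM scaling and robust dispersion was fitted to all 9 libraries in R 4.3.3, with group as the only term. Benjamini-Hochberg adjustment ran over all tested genes, with a threshold of 0.05. DESeq2 1.42.0 with independent filtering, limma voom 3.58.1, other scalings and filters, added covariates, GC and length trends removed, and each library left out were alternatives. The log2 CPM values used a prior count of 2, and exact permutation tests used SciPy 1.17.1. Transcript GC content and length were taken from GENCODE M21 on GRCm38 by gene symbol. No duplicate library was found (chi-square per degree of freedom 2.8 to 15.9 within groups). The scripts' tests were checked on simulated data. Genes named in full followed a rule: the 26 listed genes, and of each other list at most 2 genes with the smallest p in each direction and comparison. Slc12a5 and Sst are examples under that rule. One of the other lists is not reported here. The 26 genes and the other lists were chosen with earlier results of these data known.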

Additional observations from a re-analysis of the deposited data

How the results depend on the processing

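All 3 comparisons had 0 genes past the threshold in edgeR, and how many passed depended on the fit, given here in the order used above. DESeq2 called 177, 185 and 16 genes, and 53, 73 and 16 without independent filtering, an alternative chosen after seeing the data. edgeR without a filter on low counts called 297, 430 and 218. With only the groups compared in the fit it called 0, 1 and 239, and with a choroid plexus score as covariate 0, 410 and 2. With a striatum score it called 2, 1 and 0, and without the 3 libraries lowest in Ttr 14, 20 and 16, where the 1 exercised mouse left is assumed to vary like the other groups. Leaving out each library, in edgeR and, added later, in DESeq2, gave 0 to 284, 0 to 420 and 0 to 166. limma voom, other scalings, a stricter filter, and GC and length trends removed gave 0 in each.

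Of the 26 GABA genes, DESeq2 called 1, 1 and 0, edgeR without a filter 1 (Erbb4), 3 (Gabra5, Gphn and Erbb4) and 0, with 3 for any difference among the groups, and edgeR with the choroid plexus covariate 0, 3 (Gabra5, Gad2 and Gphn) and 0. Leaving out each library gave 0 to 1, 0 to 5 and 0, and 0 to 4 for any difference. The median fold change of the 26 was −0.0052 for SUS against SED and 0.0758 for SUS_LE against SED without the 3 libraries lowest in Ttr. It was −0.0084 for SUS against SED and 0.0748 for SUS_LE against SUS with the striatum covariate. For SUS_LE against SED it was 0.0699 with the choroid plexus covariate and 0.0778 with GC and length trends removed. Leaving out each library it ran from −0.0056 to 0.0397, from 0.0110 to 0.0728 and from 0.0282 to 0.0625. The cause of these shifts was not tested. Of 2496 values of the 26 genes under 32 alternatives, 2382 kept their sign and 26 passed the threshold.

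No clear pairing of the mice by replicate number was seen: same-numbered libraries correlated at −0.152 to 0.267, and 4 of 9 libraries were closest to their own number. These values cannot exclude a pairing. With the replicate block edgeR called 1, 1 and 0 genes, and 0 of the 26. These numbers are the labels'. In the count files' own headers the SUS_LE mice carry 2, 3 and 4. By those, same-numbered libraries correlated at −0.174 to 0.245, and a block on them, chosen after seeing the data, called 16, 18 and 3 genes and 0 of the 26. With 3 mice a group, genes with few counts, such as Gabrd and Pvalb, had intervals too wide to exclude differences of the size seen here.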
